A study of Mus musculus with 6 samples.

Results

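The cytoplasmic ribosomal protein genes encode the protein parts of the ribosomes that translate nuclear messages. They were taken as every gene of the array whose platform annotation gave exactly 1 symbol of the Rpl or Rps series, or Rpsa, Rplp0, Rplp1 or Rplp2, without the S6 kinases (Rps6k), Rps27l, Rps19bp1 and pseudogenes. This gave 65 genes of 22104 named on the array, read by 504 probe sets, each a group of probes for a short stretch of a transcript. After a filter on dim probe sets 471 of these were kept, and 64 of the 65 genes were measured, among 20060 genes in all. Rpl10l had no probe set above the filter. The RNA came from KLS cells, sorted from bone marrow as carrying Kit and Sca-1 but no mature lineage marker, a fraction that contains the blood stem cells and early progenitors. Wild-type cells were read on 3 arrays and Dnmt3a+/- cells, heterozygous for a disruption of Dnmt3a, which encodes a DNA methyltransferase, on 3 arrays. Neither genotype is labelled with a treatment. The labels name no age, strain or kind of disruption, and nothing says that each array stands for its own animal, so a p-value here reflects array-to-array spread that may be technical.

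A ribosome has a small subunit, which reads the message, and a large subunit, which joins amino acids, with a stalk of acidic P-proteins that recruits elongation factors. Most of these genes are among the most strongly transcribed of a cell, and their messages start with a run of pyrimidines through which the mTOR kinase controls their translation. Blood formation is sensitive to them: loss of 1 copy of any of several ribosomal protein genes causes Diamond-Blackfan anaemia, a failure of red cell production, and stem cells make protein slowly compared with their progeny.

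The disrupted gene gave a weak check of the labels, since the kind of disruption is not named and lower RNA was not assured. Dnmt3a read 8.51, 8.70 and 8.50 (log2 intensity) on the wild-type arrays and 8.38, 8.20 and 8.20 on the Dnmt3a+/- arrays. Its genotypes did not overlap, as in 9.05% of all genes in this direction. Its log2 difference, Dnmt3a+/- minus wild-type here and throughout, was -0.31 (SE 0.12), with an adjusted p of 0.631 in limma over all genes and an exact two-sided permutation p of 0.1, the smallest that 3 against 3 arrays allow. Of the sort markers, Kit was read by 25 probe sets and Ly6a (Sca-1) by 4, all of them above the filter. Correlations between arrays across genes were 0.897 to 0.964, and the 5 lowest were the pairs with Dnmt3a+/- replicate 2, which stood apart from the rest.

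Promoters of 51 of the 65 genes were found in RefSeq's table (assembly GRCm38.p6), 61 promoters in all, each from 250 bases before to 50 after the start of transcription. They shared a short word more often than other promoters did. CGGAAG, the core that ETS factors such as GABP bind, or its reverse complement CTTCCG stood in 34 of the 61 (55.7%) and in 16.9% of all 32851 promoters of the same length. A run of at least 5 C or T within 2 bases before to 7 bases after the start stood in 32.8% of them and in 13% of all, where RefSeq's start can miss the true one. TATAAA on either strand was found in 9.84% against 13.6%, and the E-box CACGTG in 9.84% against 7.15%. The 4 promoters below belong to members whose genotypes did not overlap and that the table holds. They are written 5′ to 3′ from 60 bases before to 10 after the start, with the ETS core in capitals.
Rpl37 (chr15:5116553-5116622, plus strand): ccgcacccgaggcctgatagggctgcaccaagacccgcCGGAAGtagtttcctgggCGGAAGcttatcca
Rps18 (chr17:33955656-33955725, minus strand): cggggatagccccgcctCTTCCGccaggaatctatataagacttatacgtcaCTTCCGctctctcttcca
Rps6 (chr4:86857358-86857427, minus strand): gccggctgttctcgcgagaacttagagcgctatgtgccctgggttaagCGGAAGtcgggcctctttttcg
Rpl28 (chr7:4792905-4792974, plus strand): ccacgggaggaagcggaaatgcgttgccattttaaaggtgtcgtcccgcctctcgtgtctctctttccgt
The first 2 hold 2 cores each in this window and Rps6 holds 1, while Rpl28 has none there or in the rest of its promoter. A match is a description of letters and shows no binding.

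The ribosomal protein genes were slightly lower in Dnmt3a+/- cells as a group of values, and no single one passed the test. Of the 64 genes, 55 had a negative log2 difference, against 54.4% of all genes. Their median was -0.09, a difference of -6.3%, where the median of all genes was -0.02. The brightest 10% of genes, the range in which most of these genes lie, had a median of -0.12 with 81.1% on the negative side. After cyclic loess, which evens out shifts that depend on the level, 39 of the 64 were negative, with a median of -0.027. Over all genes 49.2% were then negative, with a median of 0.003.

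In limma, 0 of the 64 genes had an adjusted p under 0.05 (background 0% of all genes), and 0 had an unadjusted p under 0.05, where 7.49% of all genes did. The smallest unadjusted p was 0.0549, for Rps7. In 6 genes, all Dnmt3a+/- arrays lay below all wild-type arrays. This is 9.38% of the members, near the 9.05% of all genes and below the 16.9% of the brightest 10% of genes. In 0 members did all Dnmt3a+/- arrays lie above, against 6.73% of all genes and 23 of the 2006 genes in the brightest 10%. The count of 6 became 20 without wild-type replicate 1 (31.2%, where all genes reached 17.2%). It was 11 without wild-type replicate 2 (17.2% against 13.1%) and 27 without Dnmt3a+/- replicate 3 (42.2% against 16.3%). With each of the other arrays left out, the members' share lay below that of all genes. It was 9.38% against 13.5% without wild-type replicate 3 and 12.5% against 15.8% without Dnmt3a+/- replicate 1. Without Dnmt3a+/- replicate 2 it was 10.9% against 12.5%. After a second quantile normalization the count was 2 (3.17% against 8.23%). With only probe sets above a level of 11, a setting chosen after seeing the data, the share was 17.6% of 51 members against 9.51% of all genes.

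The intervals limit how large a change between these arrays could have been missed, and they rest on array-to-array spread that may be technical. The 95% confidence interval of the difference extended by a median of 0.28 to each side, against 0.32 over all genes. For 52 of the 64 genes it lay wholly within a 1.5-fold change in either direction (0.58 on the log2 scale). The same held for 14198 of all 20060 genes and for 1516 of the 2006 genes in the brightest 10%. The ribosomal protein genes also moved little between arrays: the range over the 6 arrays had a median of 0.35, against 0.49 over all genes.

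**Figure D1:**
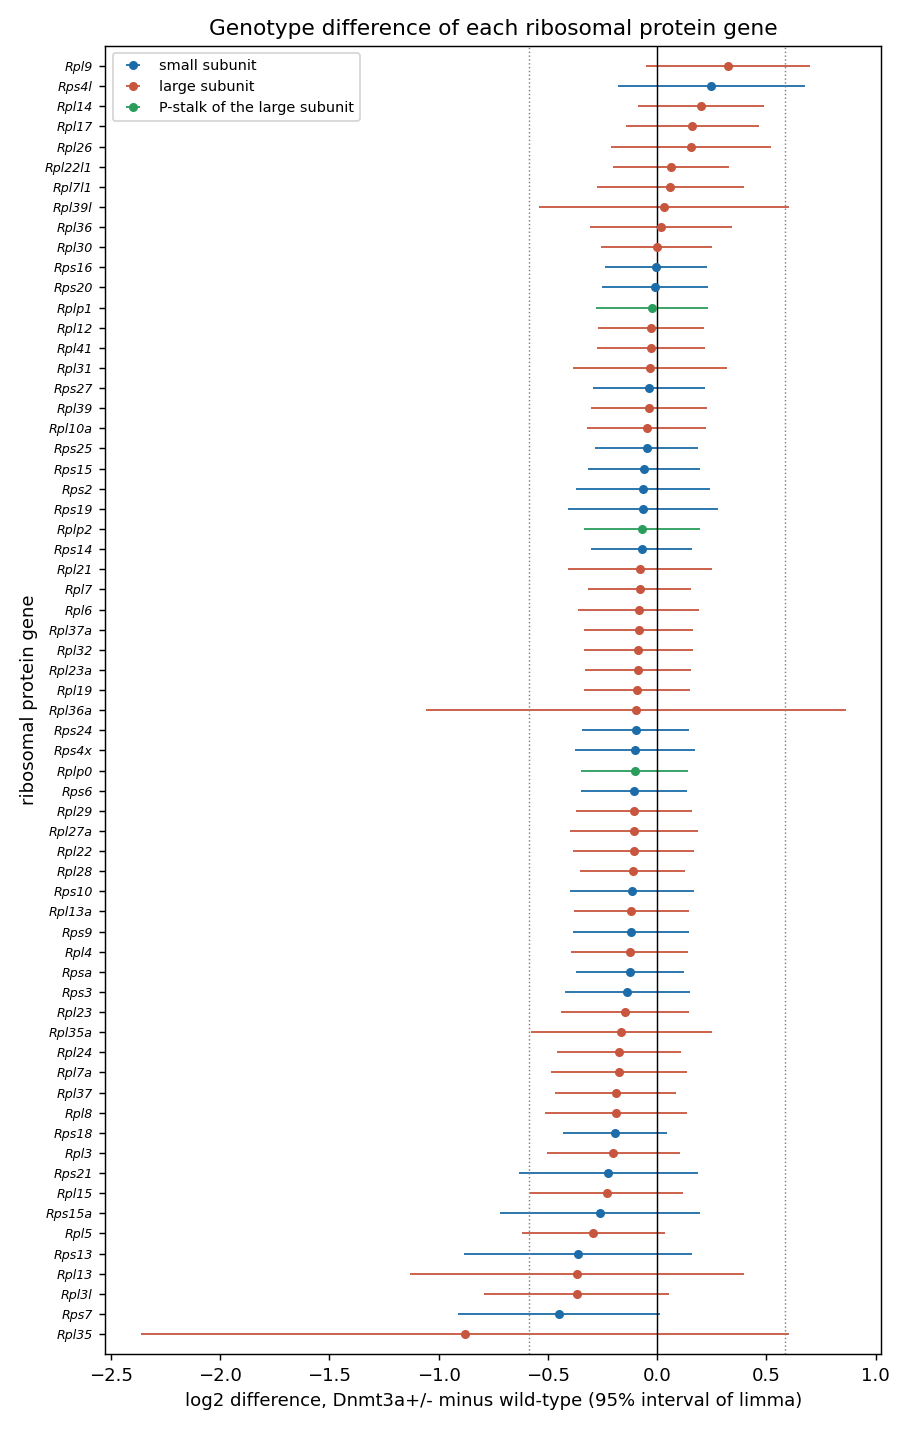
Log2 difference between genotypes (horizontal axis, Dnmt3a+/- minus wild-type) for each of the 64 measured ribosomal protein genes (vertical axis, ordered by difference), with points for the estimate, bars for limma's 95% interval, colours for the subunit and dotted lines at a 1.5-fold change. Of the estimates 55 lie left of 0, every interval includes 0, and the widest bars belong to Rpl35, Rpl36a and Rpl13.

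The small subunit was represented by 21 genes. Of these, 20 were negative, with a median of -0.10, and the exception was Rps4l, one of the paralogues described below. Rps7, a protein needed early in the maturation of small subunits, had the largest negative difference. It gave 9.29, 8.79 and 9.34 in the wild-type arrays and 8.62, 8.44 and 9.02 in those of Dnmt3a+/- cells. Only wild-type replicate 2 lay inside the range of the Dnmt3a+/- arrays. The difference was -0.45 (SE 0.20, 95% interval -0.91 to 0.01, limma adjusted p = 0.631), and it was -0.19 with the filter at the 75th percentile, which removes the dimmest of its 3 probe sets.

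Rps13, another small-subunit protein, gave 8.46, 9.08 and 8.63 in the wild-type arrays and 8.47, 7.94 and 8.67 in those of Dnmt3a+/- cells, so the genotypes overlapped and Dnmt3a+/- replicate 2 was lowest. Its difference was -0.36 (SE 0.23), and its 4 probe sets ran from -0.83 to 0.04. Under the alternative ways of processing, the difference of Rps13 lay between -0.73 and -0.15. Rps18, a protein of the head of the small subunit, was the small-subunit gene with the clearest separation. It gave 11.70, 11.78 and 11.80 in the wild-type arrays and 11.60, 11.51 and 11.59 in those of Dnmt3a+/- cells, a difference of -0.19 (SE 0.10, 95% interval -0.43 to 0.04). The genotypes did not overlap, but the difference was -0.07 when the median of its probe sets was taken in place of the mean.

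Rps6, the substrate of the S6 kinases that mTOR activates, was the other small-subunit gene without overlap. It gave 8.74, 8.90 and 8.78 in the wild-type arrays and 8.72, 8.66 and 8.73 in those of Dnmt3a+/- cells, and the arrays nearest each other were 8.74 and 8.73. The difference was -0.10 (SE 0.10) and turned to 0.03 after cyclic loess. Rpsa, which is also known as a laminin receptor, differed by -0.12 (SE 0.11). Rps14, the gene linked to the anaemia of myelodysplasia with a deleted long chromosome arm, held within 0.13 over all 6 arrays and differed by -0.07 (SE 0.10, 95% interval -0.30 to 0.16). The steadiest member of all was Rps16, with a range of 0.11 and a difference that rounds to 0.00 (SE 0.10).

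The large subunit without its stalk was represented by 40 genes, 32 of them negative, with a median of -0.09. Among the 40 were the paralogues Rpl3l, Rpl7l1, Rpl22l1 and Rpl39l, of which only Rpl3l was negative. Rpl35, which sits at the exit of the peptide tunnel, had the largest difference of all members, -0.88 (SE 0.64). It gave 7.04, 5.54 and 6.41 in the wild-type arrays and 6.45, 3.92 and 5.99 in those of Dnmt3a+/- cells, with Dnmt3a+/- replicate 2 far below the rest. It rested on 1 probe set that passed the filter by 0.00044 on the log2 scale, and without Dnmt3a+/- replicate 2 its difference was -0.11. Rpl13 also rested on 1 probe set, with 10.50, 11.51 and 10.83 for wild-type against 10.997, 9.93 and 10.81 for Dnmt3a+/-. Its difference of -0.37 (SE 0.33) was -0.04 without the same array and -0.09 without wild-type replicate 2. For Rpl36a the Dnmt3a+/- arrays spread over 7.35, 6.44 and 8.38, against 7.65, 7.35 and 7.46 in wild-type. Its difference of -0.10 (SE 0.42) turned to 0.38 without Dnmt3a+/- replicate 2 and to 0.36 with the median of its probe sets.

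Rpl5, which with Rpl11 holds back the p53 inhibitor Mdm2 when ribosome assembly fails, differed by -0.29 (SE 0.14, 95% interval -0.62 to 0.04, limma adjusted p = 0.631). Its wild-type arrays read 9.94, 10.20 and 10.02 and its Dnmt3a+/- arrays 9.76, 9.55 and 9.97. Dnmt3a+/- replicate 3 lay just above the lowest wild-type array, and the other 2 Dnmt3a+/- arrays lay below all of them. All of its 4 probe sets were negative, from -0.42 to -0.13. Rpl11 was not analysed here.

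In 4 large-subunit genes the genotypes did not overlap. Rpl3, which reaches close to the centre where peptide bonds form, gave 11.95, 12.16 and 11.98 in the wild-type arrays and 11.94, 11.62 and 11.93 in those of Dnmt3a+/- cells. The gap between the nearest arrays was far smaller than the spread within each genotype, and the difference was -0.20 (SE 0.13). Rpl37 differed by -0.19 (SE 0.12), Rpl28, read by 1 probe set, by -0.11 (SE 0.10) and Rpl7 by -0.08 (SE 0.10). The nearest wild-type and Dnmt3a+/- arrays read 11.649 and 11.645 for Rpl37, 11.0392 and 11.0390 for Rpl28, and 12.109 and 12.104 for Rpl7. These genes, with Rps18, are named because their values did not overlap, a choice made after the values were seen.

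On the positive side of the large subunit, Rpl9 had the largest difference, 0.32 (SE 0.16, 95% interval -0.05 to 0.70, limma adjusted p = 0.631). Its 1 probe set gave 7.62, 7.11 and 7.14 in the wild-type arrays and 7.47, 7.73 and 7.65 in those of Dnmt3a+/- cells, with wild-type replicate 1 inside the Dnmt3a+/- range. Rpl14 followed at 0.20 (SE 0.12), Rpl17, which lines the peptide tunnel, at 0.16 (SE 0.13) and Rpl26, which also binds the message of p53, at 0.15 (SE 0.16). Rpl14 and Rpl26 turned negative, at -0.09 and -0.15, when only probe sets above a level of 11 were used.

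The P-stalk genes lay close to the rest, with differences of -0.10 (SE 0.11) for Rplp0, the base of the stalk, -0.02 (SE 0.11) for Rplp1 and -0.07 (SE 0.12) for Rplp2. Rplp0, often used as a reference gene, gave 11.03, 11.05 and 11.12 in the wild-type arrays and 10.99, 10.87 and 11.04 in those of Dnmt3a+/- cells, which overlap. Rplp1 turned to 0.04 after cyclic loess.

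Genes mutated in Diamond-Blackfan anaemia were written down as a list of 19, of which 12 were measured. Of these, 11 were negative, with a median of -0.14, and 0 passed in limma. The members with the smallest p were Rps7, Rpl5 and Rpl15, the last at -0.23 (SE 0.15). Rps19, the gene mutated most often in this disease, gave 8.55, 8.45 and 8.73 in the wild-type arrays and 8.67, 8.24 and 8.62 in those of Dnmt3a+/- cells. Its genotypes overlapped, and the difference of -0.07 (SE 0.15) turned to 0.07 after cyclic loess and to 0.19 with the median of its probe sets. By array the list stood at -0.17, -0.37 and -0.01 in Dnmt3a+/- cells relative to each gene's wild-type mean, and its median was -0.08 without Dnmt3a+/- replicate 2.

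Paralogues are extra copies of ribosomal protein genes that are mostly used in particular tissues. Of 8 listed, 5 were measured, and 4 of these 5 were positive, with a median of 0.06. They are also counted in the subunits above. Without them, 54 of 59 members were negative, with a median of -0.10. Rpl22l1, the partner of Rpl22, a protein known from lymphoid development, gave 9.28, 9.13 and 9.31 in the wild-type arrays and 9.18, 9.38 and 9.35 in those of Dnmt3a+/- cells, a difference of 0.06 (SE 0.11). Rpl22 itself read 11.52, 11.44 and 11.47 against 11.28, 11.27 and 11.56, a difference of -0.11 (SE 0.12). Taking the paralogue minus its partner on each array, the genotypes differed by 0.17, with an exact two-sided permutation p of 0.2 and 0.75 after adjustment over 5 pairs. Rpl22l1 turned to -0.15 with the median of its probe sets, so its sign depends on how they are combined.

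Rpl3l, a form of Rpl3 found in muscle, gave 6.84, 6.14 and 6.36 in the wild-type arrays and 6.20, 5.99 and 6.05 in those of Dnmt3a+/- cells. Its difference was -0.37 (SE 0.18, limma adjusted p = 0.631), and 3 of its 10 probe sets passed the filter. Rps4l, a relative of Rps4x, differed by 0.25 (SE 0.19), Rpl7l1 by 0.06 (SE 0.15) and the testis form Rpl39l by 0.03 (SE 0.25), all with overlapping genotypes. Rps4l turned to -0.03 with the median of probe sets. Against their partners, the genotypes differed by -0.17 for Rpl3l, 0.14 for Rpl7l1, 0.07 for Rpl39l and 0.35 for Rps4l, with exact permutation p-values of 0.8, 0.7, 0.9 and 0.3 (adjusted 0.9, 0.9, 0.9 and 0.75). The design cannot go below 0.1 in this test. The testis form Rpl10l stayed below the filter on all of its 3 probe sets, the brightest of which had a mean level of 5.87 against a threshold of 5.89.

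**Figure D2:**
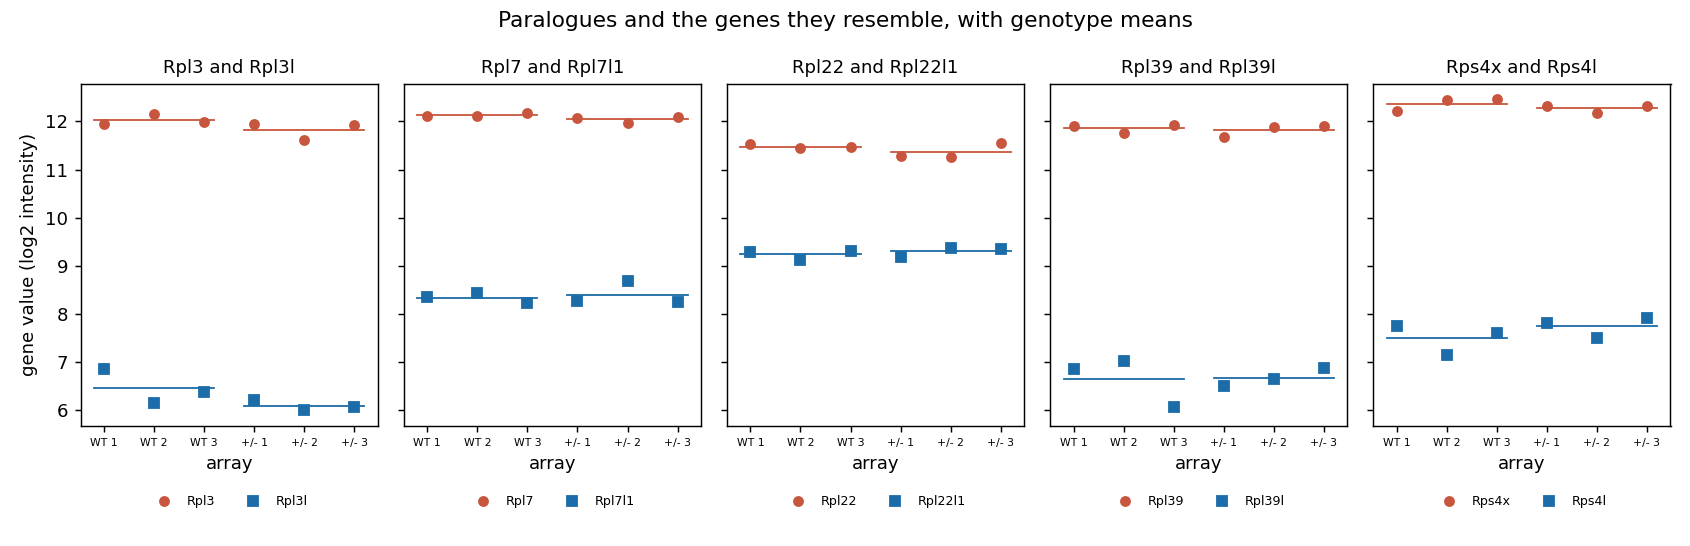
Gene values (vertical axis, log2 intensity) of 5 paralogues (squares) and the genes they resemble (circles) on each array, with a line at each genotype's mean; WT is wild-type and +/- is Dnmt3a+/-, and levels of different genes are not comparable. The means of Rpl22 differ by -0.11 and those of Rpl22l1 by 0.06, within the spread of the arrays.

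By array, the members did not shift alike in the Dnmt3a+/- cells. Relative to each gene's wild-type mean, their median was -0.10 on Dnmt3a+/- replicate 1, -0.17 on replicate 2 and -0.02 on replicate 3, against -0.03, 0.02 and 0.00 on the wild-type arrays. Replicate 3 thus lay within the wild-type range. Dnmt3a+/- replicate 2 held the lowest value of 38 of the 64 genes (59.4%), against 32.5% of all genes. Dnmt3a+/- replicate 1 held the lowest of 16 (25%, against 8.62%), and replicate 3 the lowest of 0 (against 15.6%). Replicate 1 was below the wild-type mean in 57 genes, replicate 2 in 49 and replicate 3 in 37, while the wild-type arrays were below it in 30 to 37. The brightest 10% of genes stood at -0.07, -0.27 and -0.03 on the same Dnmt3a+/- arrays, so they moved with the members, and the part of level in the members' shift was not tested. Without Dnmt3a+/- replicate 2 the median difference of the members was -0.06, and without replicate 3 it was -0.13. The deposited arrays were normalized but do not share 1 distribution: their highest linear intensity ran from 19258 on Dnmt3a+/- replicate 1 to 22239 on wild-type replicate 2, and their medians from 59.8 to 61.6. Fewer cells of a type and less RNA per cell cannot be told apart in these bulk samples.

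**Figure D3:**
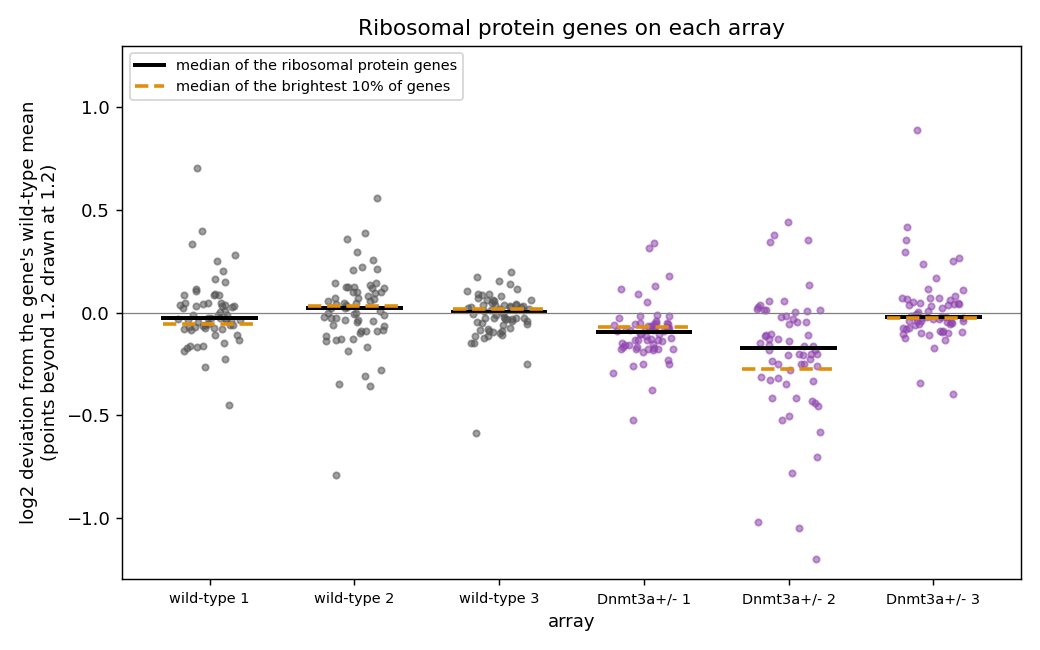
Log2 deviation of each of the 64 genes from its wild-type mean (vertical axis) on each of the 6 arrays (horizontal axis), with points for genes, a black line for their median and a dashed line for the median of the brightest 10% of genes. The black lines of the Dnmt3a+/- arrays lie at -0.10, -0.17 and -0.02, and the points of Dnmt3a+/- replicate 2 spread widest downwards.

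The 471 single probe sets gave a finer picture. Of these, 380 were negative, where 50.3% of all 628415 probe sets were, and the median was -0.08. In limma 0 passed (background 0%), with a smallest adjusted p of 0.799, and 5 had an unadjusted p under 0.05, against a background of 6.21%. In 50 the Dnmt3a+/- arrays lay below all wild-type arrays (10.6%, background 6.1%), and in 5 above (background 6.31%). Probe sets of 1 gene share their transcript and are not independent.

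The spread of these differences depended strongly on brightness. The 36 probe sets up to a level of 7 had an SD of 0.45, the 75 between 9 and 11 one of 0.18, and the 68 above 13 one of 0.05. Above 13, 63 of the 68 were negative, with a median of -0.06, and of all probe sets in that range 76.5% were negative, with a median of -0.05. Between 11 and 12, 67 of 75 were negative, with a median of -0.11, where all probe sets there had -0.03 and 56.8%. The members thus lay on the negative side in a larger share than all probe sets of like brightness. Only 221209 of the 628415 probe sets carried exactly 1 symbol, so most of that background is not tied to a single named gene. By gene, 85.9% of the members were negative against 81.1% of the brightest 10% of genes. These 2 groups were not matched in level, with median levels of 11.03 and 9.25. Of the 43 members above a level of 10, 42 were negative, and of the 21 up to that level, 13 were. The share of all genes above a level of 10 is not given here.

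The arrays contributed to this at different levels. On Dnmt3a+/- replicate 1 the 68 members above 13 had a median of -0.14 and were all below their wild-type mean, while all probe sets of that range had -0.12. On Dnmt3a+/- replicate 2 the members between 11 and 12 had a median of -0.23, with 70 of 75 below the wild-type mean, where all probe sets of that range had -0.04. On Dnmt3a+/- replicate 3 the same ranges gave 0.00 above 13 and -0.03 between 11 and 12.

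Among the 5 probe sets with an unadjusted p under 0.05 were some of genes whose other probe sets differed far less. In Rps18, probe set 4709788 gave 8.97, 9.48 and 9.46 in the wild-type arrays and 8.74, 7.95 and 8.04 in those of Dnmt3a+/- cells, a difference of -1.06 (SE 0.28). It had the smallest p of all members' probe sets. The other 7 probe sets of Rps18 differed by -0.17 to -0.01. In Rpl37, probe set 4805350 differed by -0.80 (SE 0.33) and the other 4 by -0.09 to 0.02, and the gene's median probe set gave 0.00. In Rps15a, probe set 5606861 read 7.09, 7.81 and 7.46 against 6.28, 5.57 and 6.89, a difference of -1.21 (SE 0.37), the lowest of all, and the other 5 by -0.26 to 0.21. The remaining 2 with an unadjusted p under 0.05 were 5197897 of Rpl4, at -0.67 (SE 0.28), and 5341311 of Rpl22l1, at 0.58 (SE 0.20), the only one of the 5 that was higher.

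In some genes every probe set lay on the negative side. All 24 probe sets of Rpl3 were negative, from -0.34 to -0.0029, and so were all 14 of Rpl19 (-0.19 to -0.02), all 11 of Rpl24 (-0.37 to -0.08) and all 19 of Rpl4 (-0.67 to -0.03). Among genes with several transcripts or many pseudogene copies, probe sets may read more than 1 source. A further 88 probe sets were annotated to a ribosomal protein gene together with another symbol and were left out, which removed Rpl38 and Rps3a altogether.

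**Figure D4:**
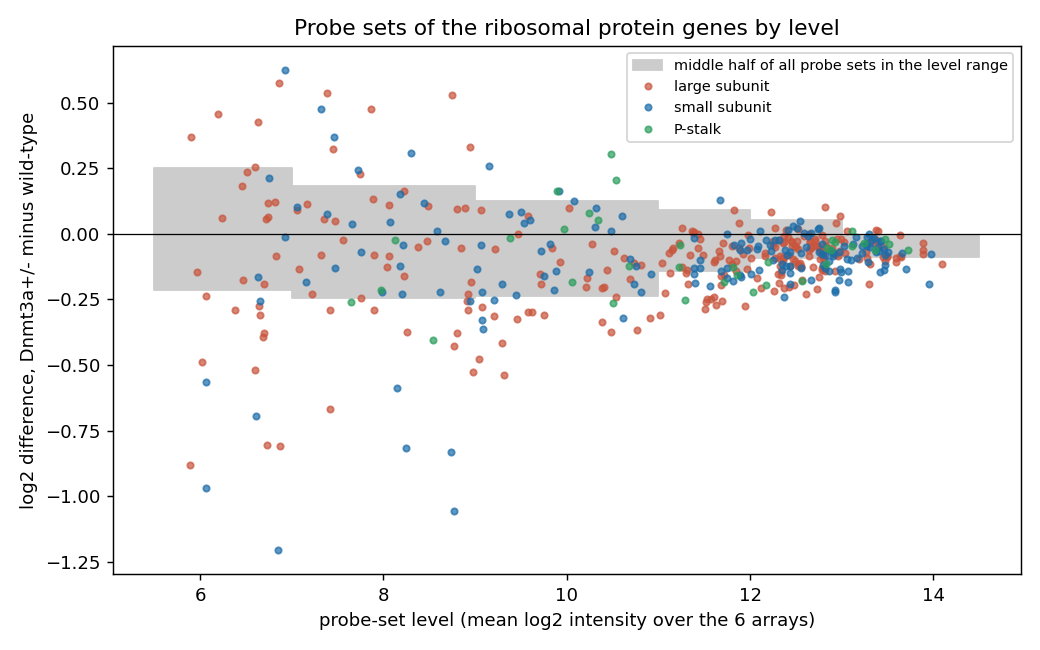
Log2 difference between genotypes (vertical axis) of the 471 probe sets of ribosomal protein genes against their level (horizontal axis, mean log2 intensity over 6 arrays), coloured by subunit, with a grey band for the middle 50% of all probe sets in each level range. Differences scatter from -1.21 to 0.62 at low levels and narrow to an SD of 0.05 above 13, where 63 of 68 points lie below 0.

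Members with and without the promoter words had like differences, which were not tested against each other. The 33 measured genes with an ETS core had a median difference of -0.10, 31 of them negative, and the 17 without one had a median of -0.10, 13 of them negative. The 20 with a pyrimidine run at the start had a median of -0.11, 18 of them negative, and the 30 without one had -0.09, 26 of them negative. Both medians of each pair lay close together beside a range of -0.88 to 0.32 over the members.

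Genes that make, use or control ribosomes gave like values, with 0 passing adjustment in limma in any of the lists. As background, the median difference was -0.02 over all genes and -0.12 over the brightest 10%. An unadjusted p under 0.05 in limma was reached by 7.49% of all genes. Translation elongation factors had 8 of 9 below 0, with a median of -0.11, and 1, the elongation factor kinase gene Eef2k, had an unadjusted p under 0.05, at -0.30 (SE 0.13). Eef1e1 stood at 0.31 (SE 0.15) and Eef1b2 at -0.17 (SE 0.15). Ribosome biogenesis factors had 33 of 39 negative with a median of -0.10, and 1 had an unadjusted p under 0.05. This was Pes1, needed for large-subunit assembly, at -0.47 (SE 0.18), followed by Mrto4 at -0.40 (SE 0.17) and Brix1 at -0.37 (SE 0.17).

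RNA polymerase I genes, which serve the transcription of ribosomal RNA, had 13 of 14 negative with a median of -0.16. The initiation factor gene Taf1a had the smallest p, at -0.53 (SE 0.21), and Polr1d and Znrd1 stood at -0.44 (SE 0.23) and -0.54 (SE 0.31). Regulators of ribosomal protein genes and their messages, such as the Myc and mTOR pathways, had 16 of 18 negative with a median of -0.17. Here Tsc1, an inhibitor of mTOR, differed by -0.28 (SE 0.11), the S6 kinase gene Rps6kb1 by -0.36 (SE 0.19) and Mycn by -0.25 (SE 0.14). On Dnmt3a+/- replicate 2 these 4 lists stood at -0.19, -0.35, -0.39 and -0.33, and on the other Dnmt3a+/- arrays between -0.05 and 0.05. On replicate 2 all genes stood at -0.03 and the brightest 10% at -0.27. The part of this array and of level in the lists' values was not tested.

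Markers of other cells were read on the same arrays. Summed linear intensities of 7 neutrophil genes were 9012 to 13374 in wild-type and 11550 to 15780 in Dnmt3a+/- cells. Those of 7 KLS genes were 6481 to 7062 and 5766 to 6288, which did not overlap. A linear sum mostly follows its brightest genes. Of the 7 KLS genes taken singly, 1 did not overlap, the sort marker Kit, which differed by -0.11 (SE 0.10). Among single genes, 15.8% of all and 18.1% of the brightest 10% did not overlap in either direction. These shares are of single genes and give no background for a sum. Of the neutrophil genes 6 of 7 were higher, with a median of 0.30, and 1 had an unadjusted p under 0.05 in limma (background 7.49%), Mmp8 at 0.64 (SE 0.20). Of the KLS genes 5 of 7 were lower, with a median of -0.11, beside -0.12 over the brightest 10% of genes. Of the monocyte and macrophage genes 5 of 6 were higher, with a median of 0.18, and 3 had an unadjusted p under 0.05, without overlap of the genotypes: Csf1r at -0.73 (SE 0.19), Adgre1 at 0.42 (SE 0.15) and Vcam1 at 0.78 (SE 0.29). Of the T and NK genes 4 of 6 were higher, with a median of 0.15, and 3 had such a p: Ncr1 at 0.45 (SE 0.18), Klrd1 at -0.71 (SE 0.17) and Cd3e at 0.33 (SE 0.12). Cd79a of the B lineage, at 0.85 (SE 0.33), and Gp1bb of megakaryocytes, at 0.33 (SE 0.14), had one as well, and 0 marker genes passed adjustment. The sums of 6 erythroid genes (996 to 1453 and 1109 to 1343), 6 monocyte and macrophage genes (1074 to 1199 and 1179 to 1368), 6 B lineage genes (870 to 1027 and 974 to 1140), 6 T and NK genes (619 to 682 and 649 to 723) and 5 megakaryocyte genes (687 to 923 and 651 to 1005) overlapped. Their part in the members' shift was not tested.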

How the data were processed

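The authors deposited normalized intensity values on a linear scale. RMA and Partek are named in the submitters' processing notes, with no version. Log2 was taken with no pseudocount. Probe sets were named by the platform's annotation, with older symbols updated through RefSeq (GRCm38.p6). A gene's value was the mean of its single-symbol probe sets whose mean level lay above the median of all 1256831 (log2 5.89). Genotypes were compared over all genes with limma 3.58.1 in R 4.3.3 without covariates, with Benjamini-Hochberg adjustment, and the fit was tested on simulated data. Single values had an exact two-sided permutation test. The arrays' number limits the precision. Members and lists were chosen with earlier results of these data known. Genes named are the 6 largest differences on each side, the 5 widest ranges, paralogues, members picked by role (Rpsa, Rplp0, Rplp1, Rplp2, Rps6, Rps14, Rps19, Rpl5, Rpl22), and the 3 smallest p of each pathway list. Others named were chosen after their values were seen. Alternatives covered the filter, summary, normalization, pseudocount, arrays left out, weights, variance model, block and symbols.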

Additional observations from a re-analysis of the deposited data

How the results depend on the processing

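The count of members past an adjusted p of 0.05 (limma) was 0 under all 17 alternatives, and no named member passed under any (smallest adjusted p 0.333). Their number with an unadjusted p under 0.05 was 0 in the analysis as reported, 1 without the filter or with a variance trend and robust estimation, 2 with the median of probe sets or after cyclic loess, 3 with array weights, 3 with the replicate number as a block, and 0 to 3 with 1 array left out. As a share of the members this was at most 4.69%, below the share of all genes in each of these alternatives, such as 12.9% against 4.69% with array weights and 6.35% against 4.69% with the block. The median difference stayed negative throughout (-0.13 to -0.027). After cyclic loess it was -0.027 for all members, -0.039 for the small and -0.029 for the large subunit and -0.052 for the Diamond-Blackfan genes, whose median was -0.22 without the filter, -0.073 with probe sets above level 11 (chosen after seeing the data) and -0.21 to -0.083 with 1 array left out. Members without overlap and lower numbered 2 after a second quantile normalization and 6 to 27 with 1 array left out, where the share of all genes was 8.23% and 12.5 to 17.2%, and that of the members 3.17% and 9.38 to 42.2%. Probe sets of members with an unadjusted p under 0.05 in limma numbered 5 of 471 as reported, where 6.21% of all probe sets had one. They numbered 8 with array weights, 9 with the variance trend and 4 to 9 with 1 array left out. The share of all probe sets under these alternatives is not given here, so these counts have no background of their own. Of the 34 members named with a difference, 13 changed sign under at least 1 alternative. The cause was not tested. Wild-type and Dnmt3a+/- arrays share replicate numbers, but the correlations of same-numbered arrays' deviations were -0.05, -0.09 and 0.11, so the block does not stand for a known pairing. Signal near background limits the dim members, such as Rpl35 and Rpl39l.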
